A study of Homo sapiens with 24 samples.

Results

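The genes described here are 40 members of the NF-kappaB pathway and its cytokine and chemokine targets, taken by name from a list, out of 60641 gene symbols counted in every library. They were 4 NF-kappaB subunits, 5 inhibitors and feedback regulators, 4 TNF-inducible and survival genes, 7 CXC chemokines, 3 CC chemokines, 4 genes of the IL1 family, 3 of the IL6 family, 4 other cytokines, 4 effectors and 2 receptors. RNA-seq was performed on 24 libraries in 8 groups of 3, from the lung adenocarcinoma line A549 and the colorectal carcinoma line HCT116, both human. The study asked how gene expression changed when the DNA-binding domain (DBD) of a noncoding transcript was deleted by CRISPR/Cas9, and no cytokine or other stimulus is named in the labels. A549 libraries were labelled MSTRG.2513.6 KO (S17 to S19), MSTRG.4401.1 KO (S23 to S25) and WT B (S20 to S22). HCT116 libraries were labelled MSTRG.2513.6 KO (S8, S9 and S11), MSTRG.4401.1 KO (S10, S15 and S16), WT B (S12 to S14), MSTRG.34636.7 KO (1A, 2A and 3A) and WT A (1A, 2A and 3A). The labels pair no KO with a wild type and do not say whether a KO line was 1 clone or whether libraries came from separate cultures, so all p-values measure the spread between these libraries. The level of the deleted sequences was not analysed here, so the KO itself was not checked.

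NF-kappaB is a family of dimeric transcription factors that rest in the cytoplasm bound to IkappaB proteins. When a receptor for TNF, IL1 or a microbial product is engaged, IkappaB is degraded, the dimers enter the nucleus and they switch on cytokines, chemokines, adhesion molecules and their own inhibitors, which close the loop. Carcinoma cells often express part of this programme without a stimulus, and the neutrophil-attracting chemokines belong to it.

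The 250 bases before the start were searched on both strands for the kappaB consensus and for the shorter pattern GGANNTTCC, and the 2 searches may match the same bases. Of 33 members with an entry among the RefSeq promoters (GRCh38.p14), 19 (57.6%) held either, against 9.62% of 27305 genes, with a gene counted if any of its promoters did. Counted by promoter, 38.9% of 54 member promoters held either, against 7.99% of 35116. CSF1, LIF, CCL2, RELB, NFKBIE, CXCL16 and IL18 had no entry there. The windows below, 30 bases each and read 5′ to 3′ on the strand of the gene, are shown because 6 of them come from the CXC chemokine cluster on chromosome 4 and the others from genes called in a KO comparison. Of the 13 members called in at least 1 KO comparison, 7 held a match and are shown, IL11, PTGS2, IL1B and IL1RN held none, which says only that these letters are not in the windows searched, and CSF1 and CCL2 had no entry. Capitals mark the matched bases.
CXCL8 (chr4:73740467-73740496, plus strand): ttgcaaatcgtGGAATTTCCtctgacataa
CXCL6 (chr4:73836578-73836607, plus strand): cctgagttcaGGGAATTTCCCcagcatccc
CXCL1 (chr4:73869304-73869333, plus strand): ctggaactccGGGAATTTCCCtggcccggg
CXCL5 (chr4:73998749-73998778, minus strand): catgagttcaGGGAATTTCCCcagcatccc
CXCL3 (chr4:74038749-74038778, minus strand): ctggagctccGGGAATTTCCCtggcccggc
CXCL2 (chr4:74099254-74099283, minus strand): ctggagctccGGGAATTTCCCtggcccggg
CCL20 (chr2:227813753-227813782, plus strand): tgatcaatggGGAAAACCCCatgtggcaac
IL6 (chr7:22727117-22727146, plus strand): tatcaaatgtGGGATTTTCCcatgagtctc
IL32, first (chr16:3065294-3065323, plus strand): cctgtactcaGGGAGTTTCCCcagccagct
IL32, second (chr16:3065324-3065353, plus strand): gtcccgagtctGGACTTTCCctctgcccct
LCN2 (chr9:128149268-128149297, plus strand): cagcactccgGGAATGTCCCtcactctccc
BIRC3, first (chr11:102317275-102317304, plus strand): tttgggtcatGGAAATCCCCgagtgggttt
BIRC3, second (chr11:102317339-102317368, plus strand): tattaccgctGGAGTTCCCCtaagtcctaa
The matched bases of CXCL1, CXCL2, CXCL3, CXCL5 and CXCL6 were the same 11 letters. They began 79, 78 and 79 bases before the start in CXCL1, CXCL2 and CXCL3, 91 bases before it in CXCL5 and CXCL8, and 90 bases before it in CXCL6. A match is a description of the letters and not evidence of binding.

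Depth differed between groups. The libraries held from 25799359 to 102261808 counts, and 3 counts, the floor used below, correspond to 0.0293 CPM (counts per 1000000 counts of the library) in the deepest library. The shallowest were those of MSTRG.4401.1 KO in A549 (25799359 to 33205007 counts), which had 6.10% ± 2.30 (SD, n = 3) of their counts on mitochondrial genes, against 2.11% ± 0.221 (SD, n = 3) in A549 WT B. Whether depth or this share takes part in the results of that KO was not tested. The same 5 members were called without the mitochondrial genes. That setting hardly moved the calls over all genes (3842 with them and 3831 without), so it cannot decide either point. The leukocyte list summed to between 2.46 and 13.8 CPM, with PTPRC and CD3E at no more than 0.211 and 0.163 CPM in any library. The fibroblast list, of which COL1A1 carried nearly all counts, summed in A549 to 8.20 to 15.3 CPM in MSTRG.2513.6 KO, to 21.2 to 25.3 CPM in MSTRG.4401.1 KO and to 26.1 to 36.4 CPM in WT B. In HCT116 it summed to 74.1 CPM in S11 against 28.1 to 30.7 CPM in WT B, and its part in the results was not tested. The A549-type list of 7 markers summed to between 6457 and 9815 CPM in the A549 libraries and to between 13.8 and 27.6 CPM in HCT116 once S8 and S9 are set aside. Within it, AKR1B10, AKR1C1, ALDH3A1 and ALDH1A1 carried the sum, while the lung genes SFTPB and NKX2-1 were at no more than 2.60 CPM in any library. The colon list summed to between 43.2 and 147.1 CPM in A549 and to between 60.4 and 89.9 CPM in HCT116 without S8 and S9, so its sum did not separate the lines, and EPHB2 carried most of it (35.9 to 144.2 CPM in A549 and 40.8 to 65.7 CPM in HCT116). Of its single genes, CDX2 was higher in HCT116 (13.9 to 23.6 CPM against no more than 1.20 CPM in A549), and CDX1, LGR5 and ASCL2 were at no more than 0.330 CPM in any library.

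The labels of 2 libraries went against their markers. S8 and S9, labelled HCT116 MSTRG.2513.6 KO, had between 8947 and 9133 CPM on the A549-type list and no more than 0.636 CPM of CDX2. The third library of the group, S11, had 27.6 CPM on that list. CXCL5, which was at 0 counts in S11, was at 119.7 CPM in S8 and 119.2 CPM in S9. Labels were kept, and the comparisons of that group are given with and without S8 and S9.

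**Figure D1:**
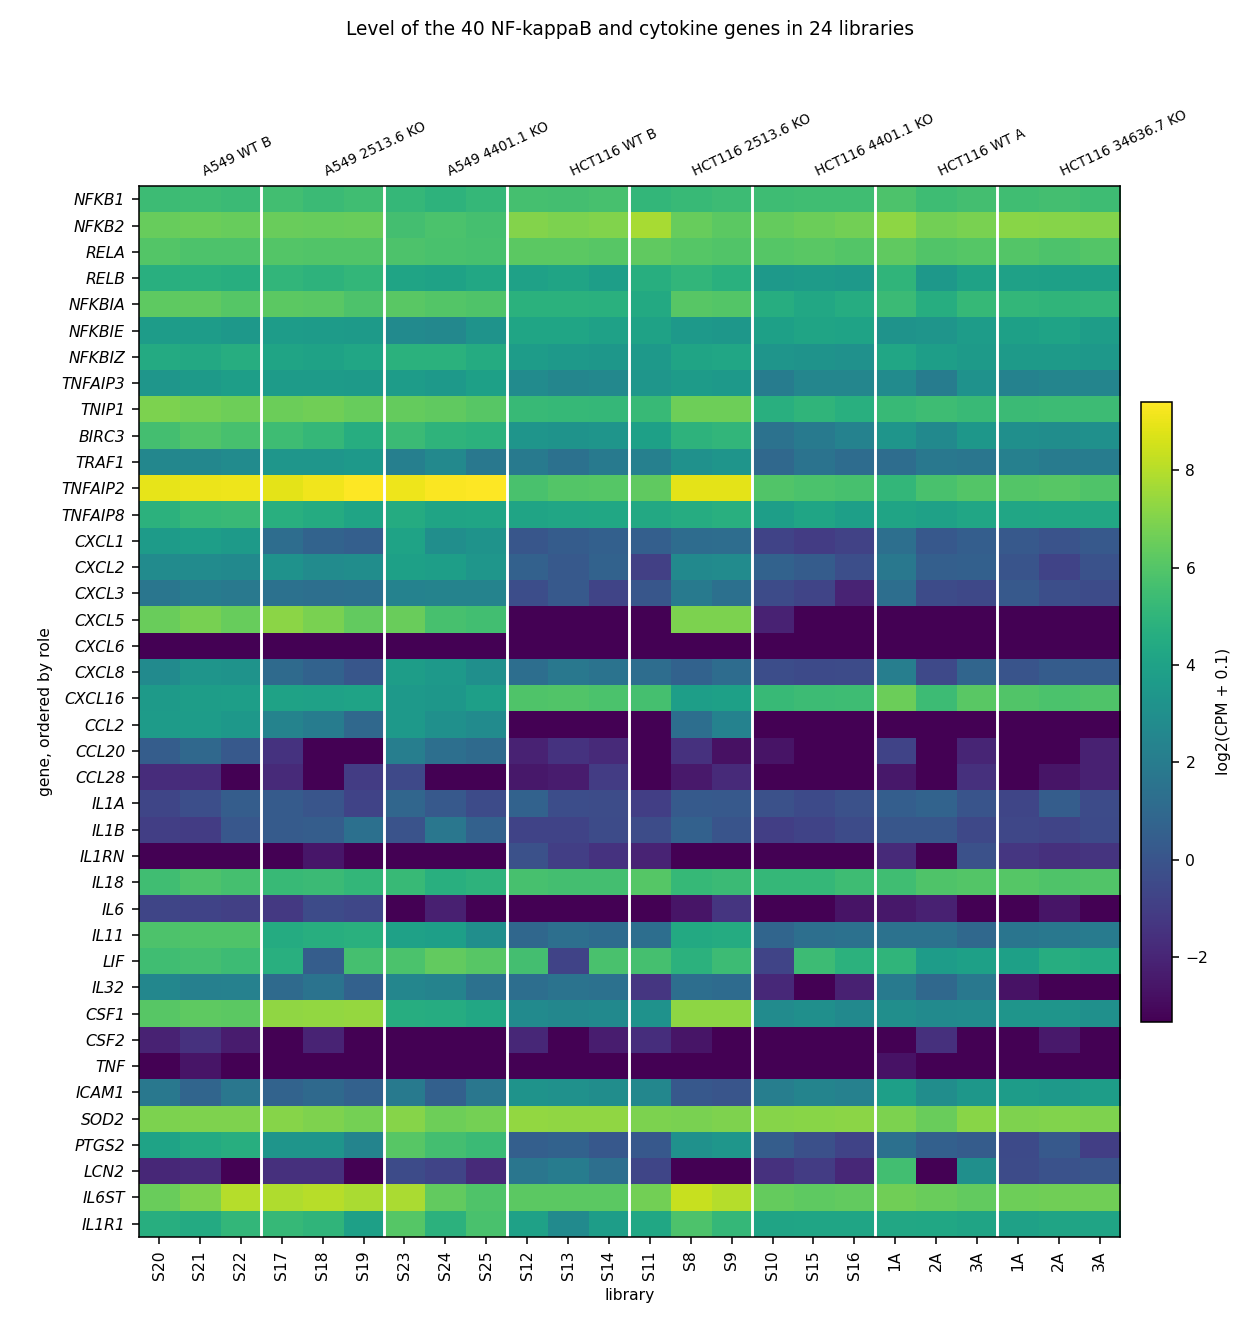
Level of the 40 genes (rows, ordered by role) in the 24 libraries (columns, grouped by label) as log2(CPM + 0.1). CXCL5 is at 119.7 and 119.2 CPM in S8 and S9 and at 0 counts in the third library of their group, S11, and CXCL6 is at 0 counts in all libraries.

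In A549, expression of the set was dominated by TNFAIP2, a TNF-inducible gene of vesicle traffic. Per kilobase of exon, TNFAIP2 had the highest mean level of the 40 members in A549 WT B, 103.3 ± 4.23 CPM per kb (SD, n = 3), followed by CXCL5 with 39.6 ± 5.37. IL11 (22.2 ± 0.624), NFKBIA (21.7 ± 1.66), IL18 (19.6 ± 2.08) and TNIP1 (18.4 ± 1.87) came next, and neighbours among these 4 differed by less than the larger of their SDs. In HCT116 WT B the order was NFKB2 (22.8 ± 1.17 CPM per kb, SD, n = 3), CXCL16 (21.3 ± 1.03), IL18 (19.1 ± 0.727) and RELA (13.2 ± 0.496). The length used joins all annotated exons of a gene, and the order depends on it. SOD2, with 18144 such bases, ranked 7 in HCT116 WT B but had the highest mean CPM there (158.8, against 127.2 for NFKB2). The lower end was shared in part. CXCL5 and CCL2, at ranks 2 and 16 in A549 WT B, were at 0 counts in HCT116 WT B, as was IL6, and IL1RN was at 0 counts in A549 WT B. CXCL6 was at 0 counts in all 24 libraries, TNF, the prototype activator of the pathway, had at most 4 counts in a library, and CSF2 at most 15, so these 3 members were not tested in any comparison that used all libraries of its groups.

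Wild-type A549 cells expressed more of the inducible programme than wild-type HCT116 cells. Of 37 members tested between the wild types, 23 were higher in A549 and 4 were lower. Genes were called at FDR < 0.1 and |log2(fold change)| > 1 by the quasi-likelihood test of edgeR, adjusted over all genes by the Benjamini-Hochberg method. The same test called 35.7% of all genes, 17.2% higher and 18.5% lower, and the median log2(fold change) was 1.22 over the members and -0.02 over all genes. The line and anything else that differed between the 2 sets of libraries cannot be told apart.

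Among ligands, the largest differences were in the chemokines CXCL5 and CCL2. CXCL5, a neutrophil attractant, was at 90.1, 111.5 and 87.8 CPM in A549 WT B and at 0 counts in HCT116 WT B, at least 1881-fold higher against a floor of 3 counts in each library. CCL2, the main monocyte attractant, was at 12.7, 12.8 and 10.9 CPM against 0 counts, at least 236.6-fold higher. IL6, the central cytokine of the acute phase, was at 0.527, 0.488 and 0.433 CPM against 0 counts, at least 9.41-fold higher. None of the 3 genes overlapped between the lines. The groups of the next genes were also apart, with IL11 at 59.5 ± 1.67 CPM (SD, n = 3) against 2.09 and a log2(fold change) of 5.09 (SE 0.13). PTGS2, the inducible cyclooxygenase, had 4.29 (SE 0.20), CSF1, the macrophage growth factor, 3.76 (SE 0.08), and CXCL1 3.70 (SE 0.18). CCL20 (3.09), CXCL2 (2.62), CXCL3 (2.44), CXCL8 (1.84) and IL32 (1.27) were higher in A549 as well.

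The regulators divided by role. RELA and NFKB1, the subunits of the classical dimer, had log2(fold change) of -0.01 and 0.03 and did not pass the test. NFKB2 was lower in A549 by 0.25 on the log2 scale, which passed the FDR but not the fold threshold. RELB, a subunit of the alternative dimer, was higher at 1.01, close to the threshold, and lost its call under 8 of 14 alternatives. The feedback inhibitors NFKBIA (1.67), NFKBIZ (1.19), TNFAIP3 (1.22) and TNIP1 (1.79) and the survival genes BIRC3 (2.75) and TRAF1 (1.22) were called higher in A549, as were TNFAIP2 (3.33) and TNFAIP8 (1.20). NFKBIE, the fifth of the inhibitors and feedback regulators, was at -0.18 (adjusted p = 0.293). The receptors IL1R1 (1.43) and IL6ST (1.33) were higher too, the latter with 257 CPM in S22 against 89.8 and 124 in the other A549 libraries, and IL6ST lost its call without S22. Higher in HCT116 were CXCL16, a membrane-bound chemokine (59.4 ± 2.88 against 13.2 ± 0.792 CPM, SD, n = 3), the adhesion molecule ICAM1 (log2(fold change) -1.36), the iron-binding LCN2 (-4.35), and IL1RN, the natural blocker of the IL1 receptor. IL1RN was at 0 counts in A549 WT B and at 0.801, 0.421 and 0.266 CPM in HCT116 WT B, at least 8.57-fold lower in A549. SOD2, the mitochondrial dismutase and a classical target, was at -0.11 and passed the FDR alone.

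**Figure D2:**
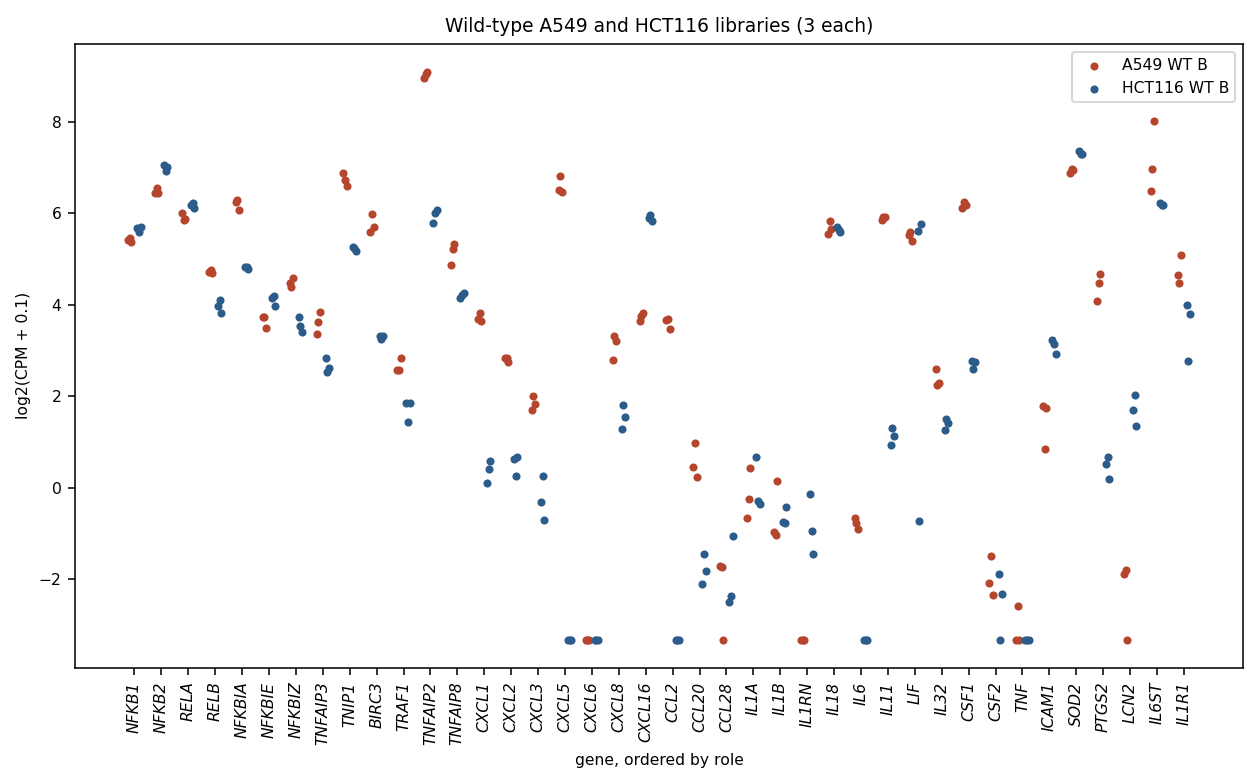
Level of each gene in the 3 libraries of A549 WT B and the 3 of HCT116 WT B, as log2(CPM + 0.1). CXCL5, CCL2 and IL6 are at 0 counts in all HCT116 WT B libraries, and IL1RN is at 0 counts in all A549 WT B libraries.

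In A549 MSTRG.2513.6 KO, 2 of 6 CXC chemokines, 2 of 3 CC chemokines, IL11, IL32 and PTGS2 fell and CSF1 rose, while none of the 4 subunits and the 5 inhibitors and feedback regulators passed the FDR. Of 36 members tested, 7 were lower and 1 was higher, 22.2% of them, against 2.92% of all genes called (1.79% lower and 1.13% higher). The median over the 36 members was 0.01 and that over all genes -0.03, and the medians lay close together. In such bulk libraries, fewer expressing cells and less RNA per cell cannot be told apart. The largest falls were in CXCL1 and CXCL8, ligands of the neutrophil receptors CXCR1 and CXCR2, and in CCL20, the ligand of CCR6.

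CXCL1 was at 2.21, 1.59 and 1.35 CPM in the KO libraries and at 12.8, 13.9 and 12.3 CPM in WT B, without overlap. Its log2(fold change) was -2.91 (SE 0.23, adjusted p = 0.00083), which is 7.54-fold lower. CXCL8 was at 2.00, 1.502 and 0.963 CPM against 6.83, 9.80 and 9.07 CPM, again without overlap. This gave -2.50 (SE 0.30, adjusted p = 0.0049), or 5.66-fold lower. Both kept the call under all 14 alternatives. The other tested members of their cluster, CXCL2, CXCL3 and CXCL5, were not called. They carry the same matched bases as CXCL1, and no difference between these genes was tested. CXCL2 was at 0.18 (adjusted p = 0.648), CXCL3 at -0.49 (adjusted p = 0.234) and CXCL5 at 0.26 (adjusted p = 0.621), with CXCL5 between 82.8 and 148 CPM in the KO libraries.

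CCL20 was at 0.266, 0 and 0 CPM in the KO against 1.26, 1.87 and 1.08 CPM in WT B. Its log2(fold change) of -3.83 (SE 0.99, adjusted p = 0.0906) rests on few counts and was called under 5 of 13 alternatives. CCL2 was at 5.07, 4.04 and 1.90 CPM against 12.7, 12.8 and 10.9 CPM, a change of -1.71 (SE 0.35, adjusted p = 0.0395). The KO and wild-type libraries did not overlap for either gene, but CCL2 lost its call when S18, S20 or S21 was left out.

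Among cytokines and effectors, CSF1 rose and IL11, IL32 and PTGS2 fell. CSF1 was at 155.9, 164.7 and 167.3 CPM in the KO against 68.5, 75.9 and 72.7 CPM, a log2(fold change) of 1.17 (SE 0.09, adjusted p = 0.000686). IL11, a gp130 cytokine, was at 22.7, 24.8 and 27.0 CPM against 57.6, 60.5 and 60.4 CPM, a change of -1.26 (SE 0.10, adjusted p = 0.000806). For CSF1 and IL11 the 2 groups were far apart and the call held under all 14 alternatives. PTGS2 was at 9.81, 9.76 and 5.35 CPM against 16.7, 22.03 and 25.2 CPM (-1.34, SE 0.26, adjusted p = 0.0359) and was not called without S21 or S22. IL32, a proinflammatory cytokine, was at 2.05, 2.79 and 1.48 CPM against 5.91, 4.61 and 4.76 CPM (-1.27, SE 0.28, adjusted p = 0.0535), and it lost its call when S17, S20, S21 or S22 was left out. Neither gene overlapped between the groups.

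The remaining members were close to wild type or varied too much for the test. NFKB1 was at 0.05, RELA at 0.06, NFKBIA at -0.12, TNFAIP3 at 0.05, SOD2 at -0.01, IL6 at 0.06, IL1A at 0.09 and ICAM1 at -0.72, with adjusted p of 0.296 or more. IL1B, the secreted pyrogen of the IL1 family, was at 1.46 (adjusted p = 0.15) with no overlap between the groups. TRAF1, an adaptor of TNF receptors, was at 0.76 (adjusted p = 0.0275) and passed the FDR alone. LIF was at 1.24 CPM in S18 against 26.5 and 50.6 CPM in the other KO libraries. Leaving out S20 or S21 reduced the 8 called members to 5 and 4.

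**Figure D3:**
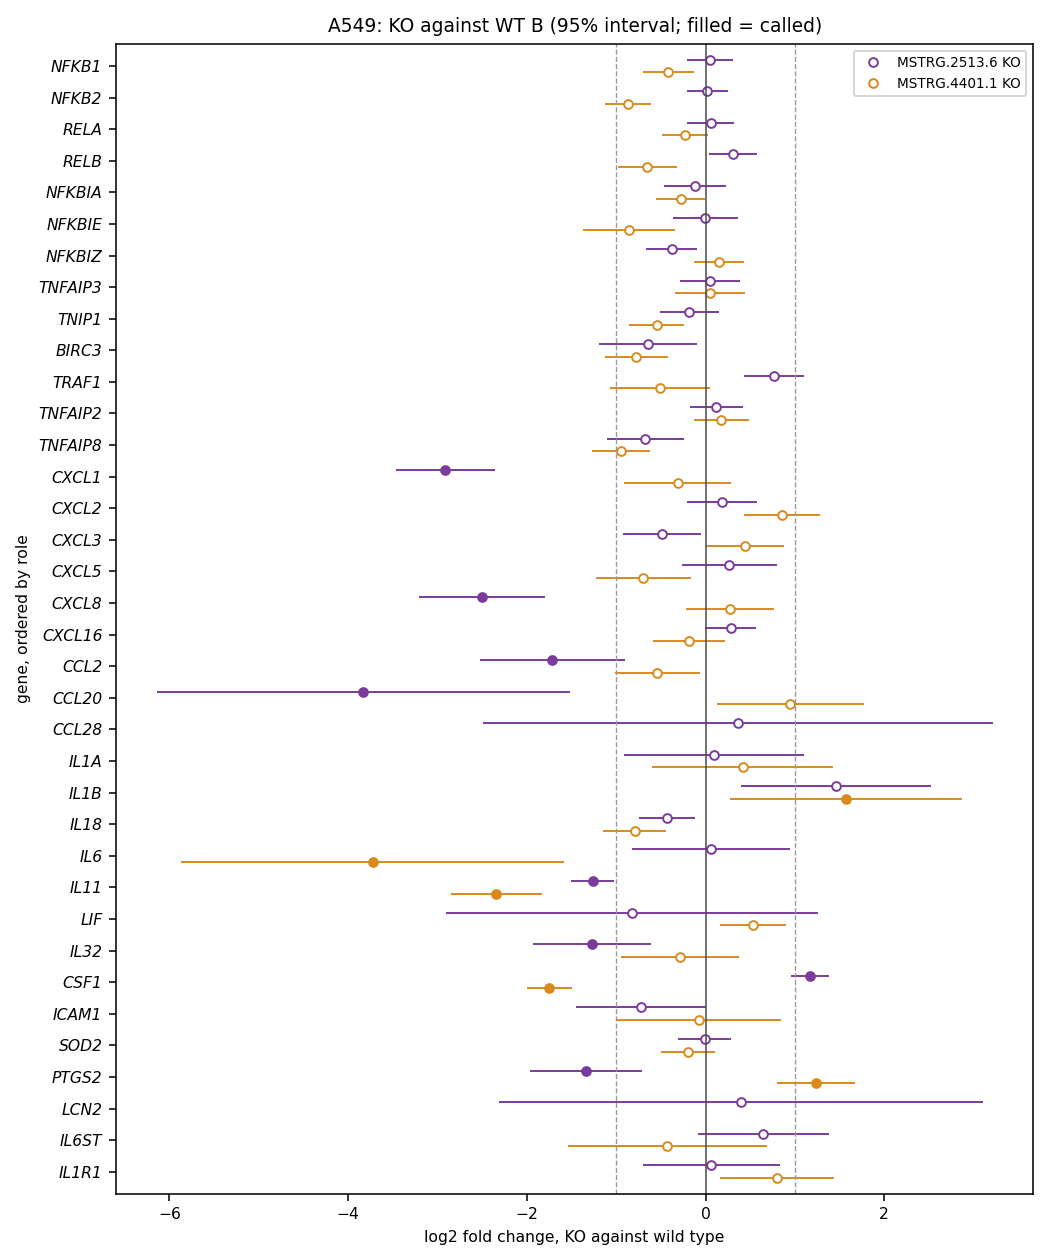
Log2 fold change of each tested gene in the 2 KOs of A549 against the same 3 WT B libraries, with 95% intervals from edgeR, filled where called, and dashed lines at -1 and 1. CXCL1 and CXCL8 are called in MSTRG.2513.6 KO (-2.91 and -2.50) and not in MSTRG.4401.1 KO (-0.31 and 0.27), and CSF1 and PTGS2 are called with opposite sign in the 2 KOs.

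In A549 MSTRG.4401.1 KO, IL6, IL11 and CSF1 fell, PTGS2 and IL1B rose, and several subunits and inhibitors were slightly lower. Of 34 members tested, 2 were higher and 3 lower, 14.7% of them, against 15.4% of all genes (11.1% higher and 4.32% lower), a share near the background. At FDR < 0.1 with no fold threshold, 6 were higher and 14 lower, against 43.7% of all genes (21.3% higher and 22.4% lower). The median was -0.28 over the members and 0.12 over all genes. That scale depends on the normalization, since upper-quartile scaling moved the median of all genes to 0.28 and the FDR counts of members to 9 higher and 12 lower. Of all genes called, 71.9% were higher, against 83.1% with upper-quartile scaling and 59.0% with DESeq2.

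CSF1 was at 24.6, 23.8 and 20.1 CPM in this KO against 68.5, 75.9 and 72.7 CPM in WT B. Its log2(fold change) was -1.75 (SE 0.11, adjusted p = 4.94e-05), or 3.36-fold lower. IL11 was at 15.3, 14.5 and 7.62 CPM against 57.6, 60.5 and 60.4 CPM, a change of -2.34 (SE 0.22, adjusted p = 0.00031). In both genes every KO library was below every wild-type library, and the call held under all 15 alternatives. IL6 was at 0, 0.116 and 0 CPM against 0.527, 0.488 and 0.433 CPM (-3.73, SE 0.94, adjusted p = 0.0178), from no more than 3 counts in a KO library. An antisense gene, IL6-AS1, shares exon bases with IL6, and their reads cannot be told apart if the strand was not used in counting.

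PTGS2 was at 68.9, 49.0 and 40.7 CPM against 16.7, 22.03 and 25.2 CPM. This rise of 1.23 (SE 0.19, adjusted p = 0.00258), 2.35-fold, had no overlap and fell short of the fold threshold only without S23. The lncRNA PACERR overlaps PTGS2 on the opposite strand. IL1B was at 0.843, 3.26 and 1.45 CPM against 0.408, 0.387 and 1.01 CPM, so the groups overlapped, and its rise of 1.57 (SE 0.56, adjusted p = 0.0614) was not called without S24, S20 or S21. Among the chemokines, CXCL2 was at 15.2, 14.2 and 10.1 CPM against 7.01, 7.00 and 6.57 CPM (0.85, adjusted p = 0.00946) and CCL20 at 4.31, 2.40 and 1.98 CPM against 1.26, 1.87 and 1.08 CPM (0.95, adjusted p = 0.0691). Both passed the FDR and not the fold threshold, and so did CXCL5 (-0.70, adjusted p = 0.0456) and CCL2 (-0.54, adjusted p = 0.0704), which were lower. LIF (0.53) and the receptor IL1R1 (0.80) passed the FDR alone as well. CXCL1 was at -0.31 (adjusted p = 0.374) and CXCL8 at 0.27 (adjusted p = 0.337), each with KO libraries on both sides of the wild type or overlapping it.

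Among subunits and inhibitors, NFKB2 was at 48.8, 56.4 and 49.6 CPM against 86.3, 93.8 and 86.6 CPM, a change of -0.87 (SE 0.11, adjusted p = 0.00119) with no overlap. NFKBIE (-0.85), RELB (-0.65), TNIP1 (-0.55) and NFKB1 (-0.42) also passed the FDR alone, as did BIRC3 (-0.78), TNFAIP8 (-0.95) and IL18 (-0.79). NFKBIA was at -0.28 (adjusted p = 0.0973). RELA (-0.23), TNFAIP3 (0.05), SOD2 (-0.20), ICAM1 (-0.07) and IL1A (0.41) had adjusted p of 0.131 or more.

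The 2 KOs of A549 were compared with each other, because both use the same wild-type libraries. Of 34 members tested, 5 were higher and 7 lower in MSTRG.4401.1 KO than in MSTRG.2513.6 KO, 35.3% of them, against 16.6% of all genes called (10.9% higher and 5.75% lower). Higher in MSTRG.4401.1 KO were CCL20 (4.70, SE 0.96), CXCL8 (2.71, SE 0.32), CXCL1 (2.54, SE 0.34), PTGS2 (2.51, SE 0.28) and CCL2 (1.11, SE 0.36). Lower were IL6 (-3.85, SE 0.96), CSF1 (-2.98, SE 0.13), TRAF1 (-1.34, SE 0.24), IL11 (-1.15, SE 0.23), IL6ST (-1.13, SE 0.41), RELB (-1.02, SE 0.16) and CXCL5 (-1.02, SE 0.29). CSF1, at 162.6 ± 5.94 CPM (SD, n = 3) in one KO and 22.8 ± 2.38 in the other, was 7.87-fold lower with an adjusted p of 4.15e-06. CXCL1, CXCL8, PTGS2, CSF1, TRAF1, CCL20 and IL6 kept their calls under every alternative run, while RELB, CXCL5, CCL2, IL11 and IL6ST lost theirs under 2 to 7 alternatives. IL11 was called in the same direction in both KOs against wild type, and CSF1 and PTGS2 in opposite directions.

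In HCT116 MSTRG.4401.1 KO, every member that passed the FDR was lower. Of 32 members tested, 6 were called lower and none higher, 18.8% of them, against 2.62% of all genes (1.62% lower and 0.996% higher). At FDR < 0.1 alone, 15 were lower and none higher, against 16.3% of all genes (8.72% lower and 7.57% higher). DESeq2 and upper-quartile scaling each put 1 member higher at that FDR. The median was -0.39 over the members and 0.00 over all genes. The called members were IL32, LCN2, CXCL8, CXCL1, BIRC3, an inhibitor of apoptosis, and IL1RN.

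IL32 was at 0.174, 0 and 0.124 CPM in the KO against 2.29, 2.74 and 2.58 CPM in WT B. Its log2(fold change) was -4.60 (SE 0.55, adjusted p = 0.00234), or 24.2-fold lower. LCN2 was at 0.252, 0.375 and 0.165 CPM against 3.13, 3.94 and 2.45 CPM (-3.60, SE 0.34, adjusted p = 0.000782). The libraries of the 2 groups were well apart for both genes. CXCL8 was at 0.697, 0.633 and 0.661 CPM against 2.33, 3.38 and 2.81 CPM (-2.11, SE 0.22, adjusted p = 0.00113). CXCL1 was at 0.484, 0.375 and 0.475 CPM against 0.973, 1.22 and 1.40 CPM (-1.43, SE 0.27, adjusted p = 0.0141). These 2 chemokines were low in HCT116 to begin with, with 27 to 36 counts of CXCL8 and 16 to 25 counts of CXCL1 in the KO libraries. BIRC3 was at 2.67, 3.54 and 4.83 CPM against 9.88, 9.33 and 9.90 CPM (-1.42, SE 0.20, adjusted p = 0.00448). IL1RN was at 0 counts in the KO against 0.801, 0.421 and 0.266 CPM, at least 7.81-fold lower.

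These 6 calls held with each library left out in turn. IL1RN was not called by DESeq2. With WT A as the control, BIRC3, CXCL1, IL32 (-4.82) and LCN2 were called again and ICAM1 (-1.21) was called in addition. CXCL8 (-1.73) was not called and IL1RN was not tested. For LCN2 (-6.13, SE 1.78) the WT A libraries were at 46.8, 0 and 7.89 CPM, on both sides of the KO libraries. With all HCT116 libraries in one fit, whose spread includes S8 and S9, no member was called and 27 of 30014 genes were. Without those 2 libraries only LCN2 lost its call. Among members past the FDR alone were ICAM1 (-0.85, adjusted p = 0.00816), CXCL16 (-0.55), NFKB2 (-0.45), TNIP1 (-0.42), RELB (-0.41), IL18 (-0.40), NFKBIA (-0.32), NFKB1 (-0.18) and SOD2 (-0.18, adjusted p = 0.0189). TNFAIP3 was at -0.30, RELA at -0.10 and IL1A at -0.38, with adjusted p of 0.315 or more, and IL6 was not tested because 1 of the 6 libraries had any count. LIF was at 0.504 CPM in the KO library S10 and 0.499 CPM in the wild-type library S13, against 28.5 to 54.1 CPM in the other 4 libraries, and its change was -0.55 with an SE of 1.41.

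**Figure D4:**
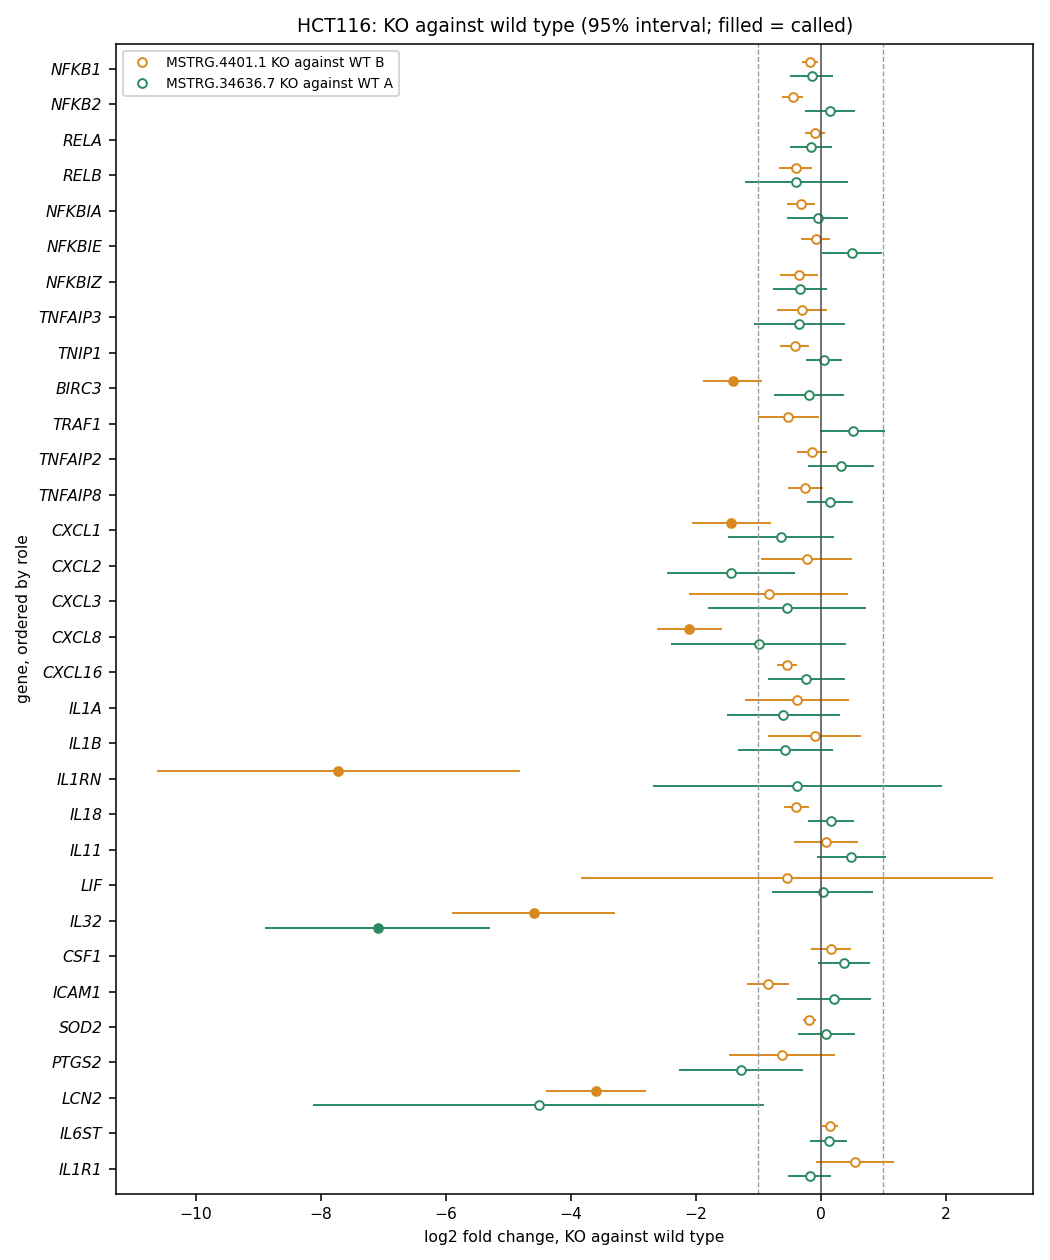
Log2 fold change of each tested gene in HCT116 MSTRG.4401.1 KO against WT B and in MSTRG.34636.7 KO against WT A, with 95% intervals from edgeR, filled where called, and dashed lines at -1 and 1. IL32 is called in both (-4.60 and -7.09), and the fitted value of IL1RN in MSTRG.4401.1 KO, where the KO is at 0 counts, depends on the prior count.

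In HCT116 MSTRG.34636.7 KO, IL32 was the only member called. Of 32 members tested, 1 was lower, 3.12% of them, against 1.34% of all genes (0.607% lower and 0.729% higher). IL32 was at 0.0546, 0 and 0 CPM in the KO against 3.59, 1.87 and 3.32 CPM in WT A, a change of -7.09 (SE 0.78, adjusted p = 0.00939). The KO libraries held no more than 5 counts of it and the wild-type libraries at least 92, and the call held under all 16 alternatives, including WT B as the control (-6.88). An snRNA gene, RNU1-125P, shares 129 exon bases with IL32 on the same strand.

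The WT A libraries differed among themselves. In WT A, LCN2 was at 46.8, 0 and 7.89 CPM, CXCL8 at 4.27, 0.591 and 1.69 CPM, and RELB at 32.6, 11.04 and 16.01 CPM in the libraries 1A, 2A and 3A. Of 30 members with at least 1 CPM in a WT A library, 19 were highest in 1A and 18 were lowest in 2A. The like shares over all genes were not counted, and these CPM are without TMM. Against WT A, LCN2 was at -4.51 (adjusted p = 0.237) and CXCL8 at -0.997 (adjusted p = 0.481), and both were called against WT B (-1.998 and -1.39). CXCL2 was at 0.895, 0.486 and 0.832 CPM in the KO against 3.35, 1.32 and 1.39 CPM, without overlap, but at -1.44 it had an adjusted p of 0.19. NFKB1 was at -0.15, RELA at -0.16, NFKBIA at -0.05, TNFAIP3 at -0.35, CXCL1 at -0.64, IL1A at -0.60, ICAM1 at 0.21 and SOD2 at 0.09, with adjusted p of 0.451 or more. IL6 had counts in too few libraries to be tested. Between WT A and WT B, where no KO differs, none of 33 members was called, against 7.06% of all genes (3.16% higher, 3.9% lower). DESeq2 called 0 members, against 2141 of 42973 genes. At an unadjusted p below 0.05 by edgeR there were 3 members, against 6021 of 27280 genes.

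IL32 was the member called in most KO comparisons. Of the 40 members, 13 were called in at least 1 KO comparison. Of these, 7 were called in 1, 5 in 2 (CXCL1, CXCL8, IL11, CSF1 and PTGS2) and 1, IL32, in 3. Neither the share called in at least 1 KO comparison nor such repeats were counted over all genes. The single KO comparisons called between 0.933% and 15.4% of all genes. In HCT116, the 6 wild-type libraries had between 1.87 and 3.59 CPM of IL32, with a median of 2.66. The 7 KO libraries other than S8 and S9 had between 0 and 0.303 CPM, with a median of 0.0546, and none of these 7 reached the wild-type range. S8 and S9, at 2.31 and 2.08 CPM, lay inside it. In A549 the 9 libraries had between 1.48 and 5.91 CPM.

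**Figure D5:**
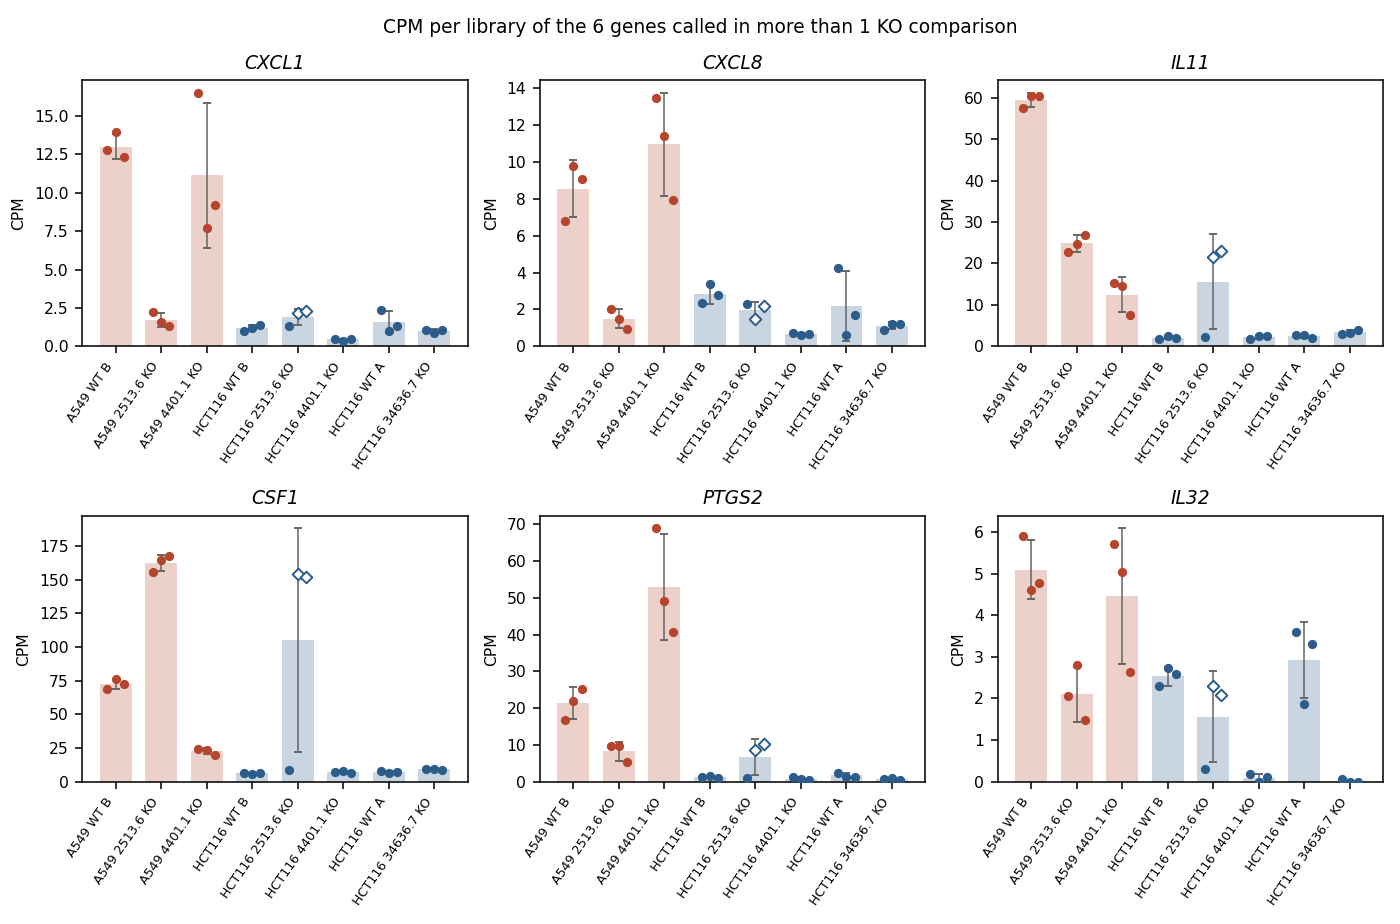
CPM of CXCL1, CXCL8, IL11, CSF1, PTGS2 and IL32 per library, with bars at the mean, error bars of 1 SD (n = 3) and open diamonds for S8 and S9. The diamonds lie with the A549 MSTRG.2513.6 KO points, for CSF1 at 154.1 and 151.6 CPM.

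The group labelled MSTRG.2513.6 KO in HCT116, compared with the same WT B libraries as MSTRG.4401.1 KO, gave no call among the members, and the group was not uniform. Of 32 members tested, none was called by edgeR, against 0.933% of all genes. At an unadjusted p below 0.05 in that test there were 17 of them, against 5456 of 26374 genes. DESeq2 called 17 of 38 members tested, against 3594 of 43058 genes. CSF1 was at 8.97 CPM in S11, 154.1 in S8 and 151.6 in S9, against 6.66, 5.92 and 6.604 CPM in WT B. For each of the 8 members called in A549 MSTRG.2513.6 KO, S8 and S9 were nearer to the mean of that KO than to the mean of A549 WT B or of A549 MSTRG.4401.1 KO on the log2(CPM + 0.1) scale. For example, CXCL1 was at 2.14 and 2.27 CPM in S8 and S9, IL11 at 21.5 and 22.97 CPM, and PTGS2 at 8.71 and 10.1 CPM. The cause was not tested.

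Without S11, 22 members were called, against 37.2% of all genes. Without S8 and S9, where S11 alone stands for the KO and is assumed to vary like the wild type, 4 of 35 members were called, against 8.69% of all genes. These were IL32 (-3.14, SE 0.35, adjusted p = 0.00352), LCN2 (-2.68, SE 0.43, adjusted p = 0.00988), CXCL2 (-1.69, SE 0.40, adjusted p = 0.0348) and CCL20 (-6.41, SE 2.11, adjusted p = 0.0903). In S11, IL32 was at 0.303 CPM, LCN2 at 0.523 CPM, CXCL2 at 0.440 CPM and CCL20 at 0 counts, each below the 3 WT B libraries. The WT A library 2A was at 0 counts of both LCN2 and CCL20. CXCL1 (0.09) and CXCL8 (-0.40) of S11 were not called. With all 3 libraries the named members not yet given were NFKB1 (-0.18), RELA (0.12), NFKBIA (1.18), TNFAIP3 (1.13), CXCL1 (0.93), CXCL8 (-0.33), IL1A (0.13), ICAM1 (-1.68) and SOD2 (-0.21), and IL6 was not tested. Without S8 and S9, NFKB1 (-0.64), NFKBIA (-0.46), TNFAIP3 (0.65), ICAM1 (-0.64) and SOD2 (-0.49) passed the FDR and not the fold threshold, so that NFKBIA had the opposite sign, and RELA (0.03) and IL1A (-1.29) did not pass.

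How far the effect of a KO differed between the lines, as A549 minus HCT116, was tested at FDR < 0.1 as an interaction. For MSTRG.4401.1, 14 of 37 members differed, 8 higher and 6 lower, 37.8% of them, against 26.9% of all genes. CXCL8 (2.35, SE 0.30), CCL20 (4.003, SE 0.92), IL32 (4.27, SE 0.66), LCN2 (5.30, SE 0.90) and PTGS2 (1.82, SE 0.40) had a higher value in A549. IL11 (-2.46, SE 0.31), CSF1 (-1.94, SE 0.14) and TNFAIP8 (-0.73, SE 0.18) had a lower value in A549. These 8 differences held under every alternative run. CSF1 and IL11 were at 0.16 and 0.08 in the KO of HCT116, where both are little expressed. LCN2 was near the floor in A549, with 0 to 11 counts in the WT B libraries and 5 to 22 in the KO libraries. For MSTRG.2513.6, 11 of 37 members differed, all lower in A549, 29.7% of them, against 9.88% of all genes (2.1% higher and 7.78% lower). Without S8 and S9, S11 alone stood for the HCT116 KO and was assumed to vary like the other groups, so only effect sizes are given. CXCL1, CXCL8, BIRC3 and IL11 stayed lower in A549. Members with a higher value in A549 included CXCL2 (1.87), IL32 (1.86), CSF1 (0.76), NFKB1 (0.69) and CXCL16 (0.60). Those with a lower value included IL18 (-0.75) and NFKB2 (-0.66). CXCL1 was at -3.81 (SE 0.46) with S8 and S9 and at -3.005 (SE 0.40) without them, and CXCL8 at -2.15 and -2.10.

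Genes that relay signals to NF-kappaB and other inducible targets were examined as 2 further lists. Of 38 signalling genes (receptors, adaptors, kinases and further inhibitors), none of 36 tested was called in A549 MSTRG.2513.6 KO, and 3 (8.33%) passed FDR < 0.1, against 5.97% of all genes (2.77% higher and 3.19% lower). In A549 MSTRG.4401.1 KO, 3 of 35 (8.57%) were called, all higher, a share below the 15.4% of all genes. These were TLR5 (1.30), the sensor of flagellin, BCL3 (1.17), an atypical IkappaB protein, and TLR3 (1.05), the sensor of double-stranded RNA. In HCT116, 1 of 36 (2.78%) was called in each KO, against 2.62% of all genes for MSTRG.4401.1, 1.34% for MSTRG.34636.7 and 0.933% for MSTRG.2513.6. Between WT A and WT B, 1 of 36 (2.78%) was called as well, against 7.06% of all genes. TAB3 (1.13) in MSTRG.4401.1 KO was at 0.57 and not called with WT A as control. TNFRSF12A (-1.15) in MSTRG.34636.7 KO was at -0.89 with WT B as control, short of the fold threshold. TRAF5 (1.01) in the libraries labelled MSTRG.2513.6 KO was at 0.83 without S8 and S9, where it passed the FDR alone.

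Of 30 other inducible targets, 3 of 25 tested (12%) were called in A549 MSTRG.2513.6 KO, against 2.92% of all genes, all higher, among them ATF3 (1.19), a stress-induced factor, and TNFRSF9 (1.12). In A549 MSTRG.4401.1 KO, 9 of 24 (37.5%) were called, against 15.4% of all genes, 2 higher and 7 lower. The largest changes were in BCL2A1 (-2.58), a survival gene of the BCL2 family, TNFSF15 (-2.56), PLAU (-2.39), the urokinase gene, and SDC4 (-1.68). HCT116 MSTRG.4401.1 KO had 2 of 23 (8.7%) lower, against 2.62% of all genes. PLAU (-1.41) was called with WT A as control too (-2.37), and TNFRSF9 (-1.82) was not (-1.97, adjusted p = 0.113). In MSTRG.34636.7 KO, 1 of 23 (4.35%) was called, ATF3 (-1.33), against 1.34% of all genes. ATF3 was itself higher in WT A than in WT B (1.19, adjusted p = 0.0266). Against WT B it was at -0.14 in this KO and not called. Between WT A and WT B, where no KO differs, 3 of 22 genes of this list (13.6%) were called, all higher in WT A, against 7.06% of all genes.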

How the data were processed

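RNA was measured by strand-specific, rRNA-depleted RNA-seq in 24 libraries. The authors deposited whole-number counts per gene symbol for each library, and per the labels reads were trimmed with Trim Galore 0.6.6, checked with FastQC 0.11.9 and aligned to hg38 with HISAT2 2.2.1. The annotation release, the use of strand in counting and the step to whole counts are not given in the sources used here. The 60641 symbols present in every library were used.

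The counts were tested as deposited with edgeR 4.0.16 (TMM, filterByExpr, glmQLFit and glmQLFTest, in R 4.3.3), with only the groups compared in each fit and Benjamini-Hochberg adjustment over all genes tested. Genes were called at FDR < 0.1 and |log2(fold change)| > 1, interactions at FDR < 0.1. The SE is the log2(fold change) divided by the square root of F. CPM was computed from library totals without TMM. Folds against a group at 0 counts used a floor of 3 counts in each library. Gene positions and overlaps came from GENCODE and promoters from RefSeq (GRCh38.p14). The main edgeR fits of the comparisons and interactions were first tested on simulated data, and the alternatives were not.

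The members and lists were chosen with earlier results of these data known. Every called member was named, and NFKB1, RELA, NFKBIA, TNFAIP3, CXCL1, CXCL8, IL6, IL1A, ICAM1 and SOD2 were named in each KO comparison. Of the further lists, up to 4 called genes were named. Alternatives were DESeq2 1.42.0, upper-quartile and RLE scaling, unfiltered genes, at least 10 counts required in each library, FDR < 0.05, calls without the fold threshold, the other HCT116 wild type, all HCT116 libraries in one fit, no mitochondrial genes, the replicate block, each library left out, and S8 and S9 left out. Counting intervals were not used, and depth and the floor cover counting error only.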

Additional observations from a re-analysis of the deposited data

Results flagged for a closer look

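For 25 results the effect of a KO differed between A549 and HCT116 by a test of the difference itself (edgeR interaction, A549 minus HCT116, on the log2 scale). For MSTRG.2513.6 these were TNFAIP3 (-1.04), BIRC3 (-2.29), TNFAIP2 (-2.61), TNFAIP8 (-1.21), CXCL1 (-3.81), CXCL3 (-2.33), CXCL5 (-14.88), CXCL8 (-2.15), CCL2 (-11.80), IL11 (-4.43) and PTGS2 (-3.97). They include S8 and S9, whose markers went against their label. Without these libraries S11 alone stood for the HCT116 KO, and CXCL1 was at -3.005, CXCL8 at -2.10, BIRC3 at -1.19 and IL11 at -1.34. Of the 11, CXCL1 was the only member called under all 16 alternatives.

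For MSTRG.4401.1 the members were NFKB2 (-0.45), NFKBIE (-0.80), NFKBIZ (0.47), TNFAIP8 (-0.73), CXCL1 (1.09), CXCL2 (1.04), CXCL8 (2.35), CCL20 (4.003), IL6 (-6.84), IL11 (-2.46), IL32 (4.27), CSF1 (-1.94), PTGS2 (1.82) and LCN2 (5.30). The values of CXCL5, CCL2 and IL6 involve groups at 0 counts and depend on the prior count.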

How the results depend on the processing

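The number of called members moved by over 1.5 times under these alternatives, and the cause was not tested. Brackets hold the calls over all genes, first in the main fit and then in the alternative. Without the fold threshold the count of members was 20 for MSTRG.4401.1 KO in A549 (3842 and 10925) and 15 in HCT116 (697 and 4336). It was 23 between the A549 KOs (4181 and 9378) and 1 between the HCT116 wild types (1926 and 3348). DESeq2 gave 17 for MSTRG.2513.6 KO in HCT116 (246 and 3594) and 2 for MSTRG.34636.7 KO (385 and 885). It gave 17 for the interaction of MSTRG.2513.6 (2949 and 4565). A minimum of 10 counts, with fewer genes tested, gave 5 for MSTRG.2513.6 KO in HCT116 (246 and 975). It gave 3 for MSTRG.4401.1 KO in HCT116 (697 and 542) and 0 for MSTRG.34636.7 KO (385 and 372). All HCT116 libraries in one fit gave 0 in MSTRG.4401.1 KO (697 and 27). For MSTRG.34636.7 KO, WT B as control gave 3 (385 and 4059). So did all HCT116 libraries except S8 and S9 in one fit (385 and 888), an alternative chosen after seeing the data. Without S8 and S9, 4 members were called in HCT116 MSTRG.2513.6 KO, and the interaction of CXCL5 turned from -14.88 to 0.28.

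When single libraries were left out, the count ranged from 4 to 7 in A549 MSTRG.2513.6 KO (4 without S21, 5 without S20), 5 to 7 for the other KO of A549, 0 to 22 in HCT116 MSTRG.2513.6 KO (22 without S11), 6 to 6 in HCT116 MSTRG.4401.1 KO and 1 to 2 in MSTRG.34636.7 KO (2 without WT A 2A). It ranged from 0 to 1 between the HCT116 wild types (1 without WT A 2A), 26 to 27 between the lines, 8 to 11 between the A549 KOs, 1 to 29 for the interaction of MSTRG.2513.6 (29 without S11, and 5 or fewer without any other library) and 10 to 16 for that of MSTRG.4401.1. Calls over all genes moved as well. In A549 MSTRG.2513.6 KO they went from 750 to 497 without S20 and to 451 without S21. Without S11 they took in 37.2% of all genes in HCT116 MSTRG.2513.6 KO and 40.8% in its interaction. A group left with 1 library was assumed to vary like the others.

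Replicate numbers did not pair the samples, since same-numbered libraries of MSTRG.34636.7 KO and WT A had correlations of 0.0103, 0.0411 and 0.0810. The fit with the replicate block called 1, 0 and 27 members for MSTRG.34636.7 KO, the HCT116 wild types and the lines, the same counts as without it. Shallow libraries limit members near the floor of 3 counts, such as IL6, CCL20 and IL1RN.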
